A study of Homo sapiens with 30 samples.

Results

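A pair of FOXM1 knockout clones of the human multiple myeloma cell line OPM2, named KO1 and KO2, was compared library by library. Each clone has 3 RNA sequencing libraries, so 6 of the 30 libraries of the series enter the comparison. Genes with at least 1 FPKM (fragments mapped to a gene, scaled to its length and to the library's total) in at least 3 of the 6 libraries were kept, which left 10135 of 16407 genes. A clone difference is given as KO2 minus KO1 on the log2(FPKM + 1) scale, which understates the change of weakly expressed genes. List counts and the main values are also given without KO2 replicate 3 where they change, because this library stood apart from the other 2 of its group.

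Both clones carry FOXM1 edited with Cas9 protein complexed with a synthetic guide RNA and overexpress nothing. Individual clones were grown by limiting dilution, and the loss of FOXM1 was checked by Western blot and Sanger sequencing. Each knockout group is thus 1 clone, and a p-value here reflects how its libraries vary, not how clones vary. The labels do not say if the libraries are separate cultures, so that spread may be technical. Which guide made which clone is not given in the sources used here. The unedited line (WT) and 2 derivatives of KO1, one with an empty vector (KO1EV) and one with a vector for the FOXM1c isoform (KO1R), have 3 libraries each and share the estimate of the spread. The sorted cells of KO1R were selected for GFP.

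The 3 guides against exon 2 of FOXM1 are shown because the clones were made with guides from this set. Capitals mark the 19 bases that the first 2 guides have in common, so these guides overlap in all but 1 base, while the third shares at most 3 bases in a row with guide 1.
Guide 1: uUGAGAAUCAGUGGCCGACG
Guide 2: UGAGAAUCAGUGGCCGACGg
Guide 3: uaaugaaaacuagcccccgu

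FOXM1 is a forkhead transcription factor that is made in dividing cells and drives genes of the G2 and M phases, among them cyclin B1, polo-like kinase and the spindle proteins. In myeloma, a cancer of plasma cells, high FOXM1 accompanies fast growth. Plasma cells also secrete large amounts of antibody and depend on the endoplasmic reticulum folding machinery, which is controlled by XBP1 and by the stress sensors of the unfolded protein response.

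The cells had the markers of their label. All 9 plasma cell markers, including SDC1, CD38 and XBP1, had at least 1 FPKM in each of the 6 libraries, and none of the short panels of defining T and NK cell or epithelial markers, such as CD3E and EPCAM, reached 1 FPKM in any of them. Of the defining B cell, myeloid and stromal markers, CD79B and CR2, LYZ and CD68, and PECAM1 reached it in at least 1 library. Longer marker lists did hold expressed genes. The 7 tested T and NK cell markers summed to 73.8 to 80.2 FPKM in KO1 and 63.9 to 66.8 in KO2, and 5 of them, CD7 among them, were called higher in KO1 and 1, CD28, higher in KO2 (limma). The 2 tested myeloid markers, CLEC7A and LILRB4, summed to 62.1 to 71.2 FPKM in KO1 and 37.2 to 60.5 in KO2, with 1 called higher in each clone. The 3 tested B cell markers summed to 12 to 12.5 FPKM in KO1 and 5.84 to 7.78 in KO2, with 1 called higher in each clone, and the epithelial marker ELF3 had 4.77 to 5.52 and 6.39 to 7.02. Among all tested genes, 19.3% were called higher in KO1 and 10.8% higher in KO2. The part of these markers in the clone differences was not tested. The column totals of the OPM2 libraries ranged from 510776 to 566016 FPKM, and depth cannot be read from these totals. The deviation of a library from the mean of the other 2 of its group had an SD over genes of 0.533 for KO2 replicate 3, 0.269 for KO1EV replicate 3 and 0.098 to 0.28 for the others, where the high values of KO2 replicates 1 and 2 come from a mean that contains replicate 3.

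FOXM1 transcript was present in both clones, at a lower level in KO2. The KO1 libraries had 91.24, 93.28 and 91.67 FPKM and the KO2 libraries 57.11, 59.55 and 69.73. Every KO2 library lay below every KO1 library, and both clones lay below WT (mean 176 FPKM). Over all 10135 tested genes, 22% had every KO2 library below every KO1 library, and 12.8% had the reverse. The difference was −0.57 ± 0.07 (SE, limma, adjusted p = 4.94e-05), and −0.65 without KO2 replicate 3 (adjusted p = 6.51e-08). Reads from edited transcripts count here, so the transcript level does not measure the protein.

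The clones differed in many genes, with more of them higher in KO1. Of the 10135 genes, 3058 were called at an adjusted p below 0.05 (limma, 30.2%), 1099 higher in KO2 (10.8%) and 1959 higher in KO1 (19.3%). At least a 2-fold difference was reached by 63 and 141 of them. Without KO2 replicate 3, 6210 genes were called (61.3%), 2252 higher in KO2 and 3958 higher in KO1, with 185 and 239 at 2-fold. Of the 3058 genes, 2990 were also called in the same direction without that library. With only the 6 libraries of the pair in the fit, 1180 genes were called (11.6%), 337 higher in KO2 (3.33%) and 843 higher in KO1 (8.32%). The excess of genes higher in KO1 depended on the scaling, since quantile normalization gave 1565 higher in KO2 and 1605 higher in KO1 and median-ratio scaling gave 1543 and 1576. Before those, the median difference over all genes was −0.06, with 5% of genes below −0.63 and 5% above 0.48.

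**Figure D1:**
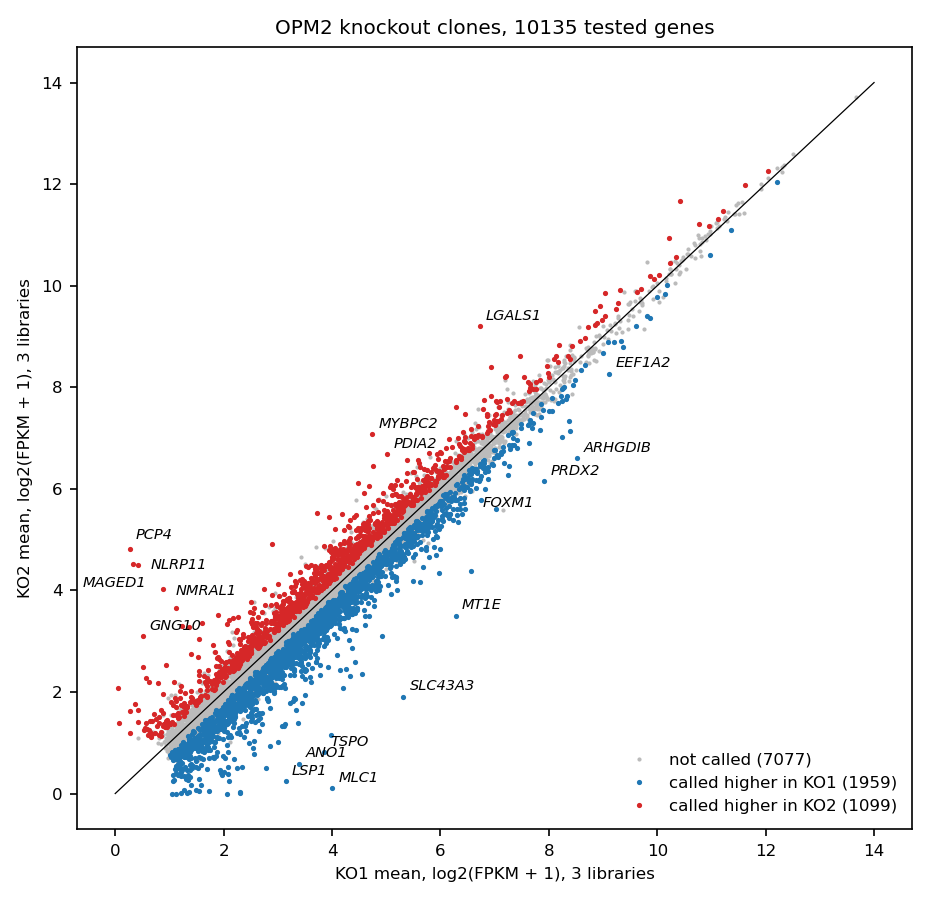
Mean log2(FPKM + 1) of the 3 KO1 libraries (x axis) against that of the 3 KO2 libraries (y axis) for the 10135 tested genes. Points above the diagonal line are higher in KO2, and coloured points (1099 and 1959) passed the test.

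Several genes were on in one clone and almost off in the other. MLC1, a membrane protein gene best known in astrocytes, had 15.3, 13.71 and 15.97 FPKM in KO1 and 0.17, 0.03 and 0.03 in KO2. The difference was −3.89 ± 0.07 (limma, adjusted p = 1.19e-12). LSP1, a leukocyte actin-binding protein gene, had 6.66, 7.9 and 9.11 FPKM in KO1 and 0.37, 0.15 and 0.07 in KO2. These 2 genes had every KO2 library under 0.5 FPKM and every KO1 library at 5 FPKM or more. WT had 4.34 FPKM of MLC1 and 3.41 of LSP1 on average, so KO1 was above WT and KO2 was below it.

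The reverse pattern, KO1 under 0.5 FPKM and KO2 at 5 FPKM or more in every library, was met by 3 genes. PCP4, a calmodulin-binding peptide gene, had 0.25, 0.24 and 0.12 FPKM in KO1 and 22.93, 19.14 and 45.18 in KO2. MAGED1, of the MAGE family, had 0.27, 0.16 and 0.32 FPKM in KO1 and 21.2, 20.96 and 23.74 in KO2. NLRP11, of the NOD-like receptor family, had 0.35, 0.36 and 0.3 FPKM in KO1 and 25.54, 24.4 and 16.48 in KO2. The separation of the clones follows from how these genes were chosen. The differences were 4.55 ± 0.23, 4.20 ± 0.09 and 4.09 ± 0.12 (limma, adjusted p = 1.49e-08, 1.27e-12 and 7.64e-11).

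Genes low in KO1 were not always low in its derivatives. MAGED1 had 18.6 FPKM in WT, 8.76 in KO1EV and 0.527 in KO1R. PCP4 had 3.31, 6.01 and 0.0767. NMRAL1, a redox sensor gene, had 1.02, 0.78 and 0.75 FPKM in KO1, 15.07, 16.06 and 15.09 in KO2, and means of 9.56 in WT, 5.33 in KO1EV and 0.62 in KO1R. GNG10, a G protein gamma subunit gene, had 0.26, 0.59 and 0.46 FPKM in KO1, 7.31, 8.11 and 7.32 in KO2, and means of 5.9, 2.7 and 0.0767. These 4 genes, chosen after their values were seen, were low in KO1 and KO1R but not in KO1EV, although KO1EV derives from KO1. PCP4 differed from the other 3 in that its KO1EV level lay above WT, while theirs lay below it. The KO2 levels of all 4 genes lay above WT. NLRP11 differed from them, with 3.29 FPKM in WT, 0.383 in KO1EV and 4.93 in KO1R. The cause was not tested.

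The bases before the starts of those 4 genes are shown because the genes shared low values in KO1 and KO1R. RefSeq (GRCh38.p14) gave 5 starts for 3 of the 4 genes, and PCP4 had no entry. Each run holds the 250 bases before a start, 5′ to 3′ on the gene's strand, and capitals mark CG, the dinucleotide that DNA methylation acts on. The files do not say which start is used.
MAGED1, chrX:51802826-51803075, plus strand: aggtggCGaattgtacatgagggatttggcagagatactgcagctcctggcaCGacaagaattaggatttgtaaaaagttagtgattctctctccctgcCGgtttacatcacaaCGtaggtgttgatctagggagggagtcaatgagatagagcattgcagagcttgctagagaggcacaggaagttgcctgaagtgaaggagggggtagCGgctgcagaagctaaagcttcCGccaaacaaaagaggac
MAGED1, chrX:51893373-51893622, plus strand: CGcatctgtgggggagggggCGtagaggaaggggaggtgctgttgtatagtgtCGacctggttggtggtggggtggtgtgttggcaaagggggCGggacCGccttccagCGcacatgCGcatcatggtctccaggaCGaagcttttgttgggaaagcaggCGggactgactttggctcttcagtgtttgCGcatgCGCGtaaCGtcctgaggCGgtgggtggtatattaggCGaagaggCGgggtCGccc
NMRAL1, chr16:4474626-4474875, minus strand: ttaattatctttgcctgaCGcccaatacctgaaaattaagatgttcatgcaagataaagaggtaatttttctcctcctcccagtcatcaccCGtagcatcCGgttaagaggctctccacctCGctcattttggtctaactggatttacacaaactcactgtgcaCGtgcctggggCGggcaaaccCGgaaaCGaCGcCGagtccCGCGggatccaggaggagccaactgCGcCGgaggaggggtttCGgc
NMRAL1, chr16:4476338-4476587, minus strand: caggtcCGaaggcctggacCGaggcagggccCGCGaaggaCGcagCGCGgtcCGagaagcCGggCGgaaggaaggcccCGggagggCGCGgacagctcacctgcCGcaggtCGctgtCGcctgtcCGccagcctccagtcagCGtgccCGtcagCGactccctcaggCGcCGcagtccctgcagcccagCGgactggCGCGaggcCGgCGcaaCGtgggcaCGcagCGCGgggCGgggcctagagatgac
GNG10, chr9:111661355-111661604, plus strand: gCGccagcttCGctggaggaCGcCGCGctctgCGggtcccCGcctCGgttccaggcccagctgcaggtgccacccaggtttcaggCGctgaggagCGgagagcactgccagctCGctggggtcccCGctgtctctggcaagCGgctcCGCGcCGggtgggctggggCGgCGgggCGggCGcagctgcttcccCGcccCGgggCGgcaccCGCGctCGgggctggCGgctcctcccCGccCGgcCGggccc
They hold 6, 17, 15, 32 and 30 CG. Over all 35116 starts of the table the median was 11, and 61.9%, 39%, 42.9%, 9.52% and 12.4% of starts held at least as many. The motif searched was CG, which reads the same on both strands. These are counts of letters, and DNA methylation was not measured in the files used here.

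**Figure D2:**
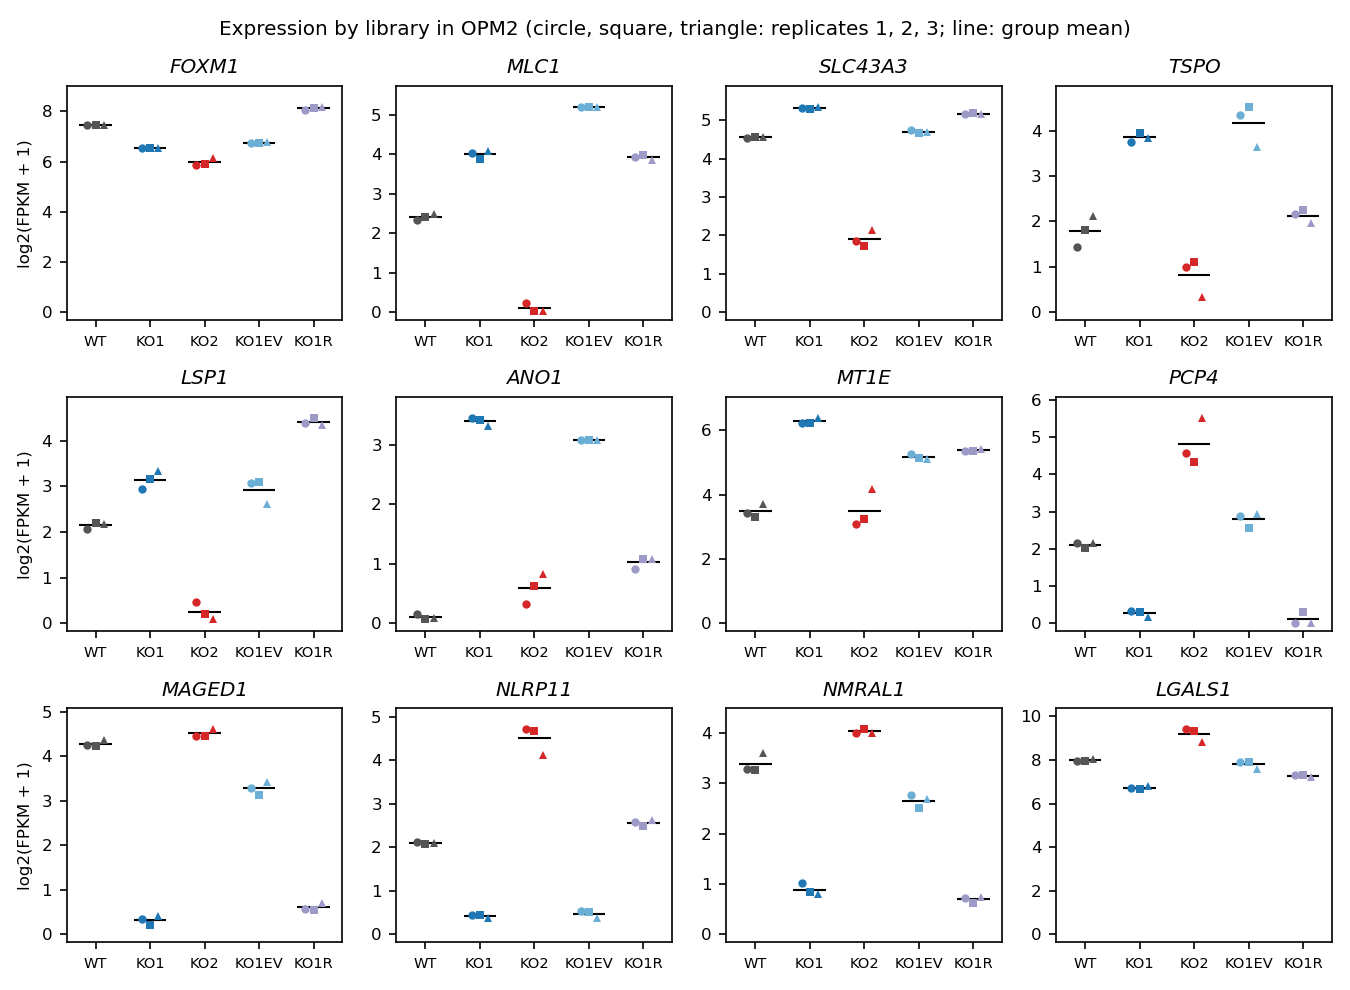
log2(FPKM + 1) of 12 genes in the 15 OPM2 libraries (points, by replicate) with group means (lines). MLC1, SLC43A3, TSPO, LSP1, ANO1 and MT1E are higher in KO1, PCP4, MAGED1, NLRP11, NMRAL1 and LGALS1 are higher in KO2, and FOXM1 is lower in KO2 by 0.57.

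Other genes with large differences toward KO1 were SLC43A3, TSPO and ANO1. SLC43A3, a nucleobase transporter gene, had 38.86, 37.94 and 39.84 FPKM in KO1 and 2.62, 2.33 and 3.37 in KO2 (−3.41 ± 0.08, limma, adjusted p = 5.91e-12). TSPO, a mitochondrial outer membrane protein gene, had 12.52, 14.54 and 13.34 FPKM in KO1 and 0.99, 1.14 and 0.27 in KO2 (−3.04 ± 0.24). ANO1, a calcium-activated chloride channel gene, had 9.96, 9.67 and 8.98 FPKM in KO1 and 0.25, 0.54 and 0.77 in KO2. A gene counted among the largest differences only if the clones did not overlap. ANO1 was nearly absent from WT (mean 0.0733 FPKM), while SLC43A3 had 22.5 FPKM there. LPL (lipoprotein lipase), EGFL7 and GAS7 were also higher in KO1, by 2.28, 1.99 and 1.97. ARHGDIB was the most abundant of the 15 largest, with 387.9, 356.65 and 358.88 FPKM in KO1 and 81.48, 79.07 and 138.95 in KO2.

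Beyond the switched genes, the largest differences toward KO2 included LGALS1 and MYBPC2. LGALS1, the gene of the secreted lectin galectin-1, had 102.65, 101.87 and 110.39 FPKM in KO1 and 695.62, 646.65 and 449.35 in KO2 (2.47 ± 0.13, limma, adjusted p = 3.08e-08). MYBPC2, a myosin-binding protein gene, had 24.02, 25.83 and 27.38 FPKM in KO1 and 149.91, 151.11 and 105.38 in KO2. In both genes KO2 replicate 3 was the lowest KO2 library. It lay above all of KO1, as the rule that named these genes required. PDIA2, a protein disulfide isomerase gene, had 30.33, 29.75 and 34.03 FPKM in KO1 and 100.18, 95.76 and 111.02 in KO2, against 6.19 in WT.

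Endoplasmic reticulum folding genes were higher in KO2, and how many depended on KO2 replicate 3. Of 39 tested members, 13 were called higher in KO2 and 0 higher in KO1 (limma, median 0.56, against −0.06 over all genes), and 26 and 0 at an unadjusted p below 0.05. Without KO2 replicate 3 the counts were 39 and 0 (median 0.96, against −0.10). The share of all tested genes higher in KO2 was 10.8% with all libraries and 22.2% without KO2 replicate 3. With only the 6 libraries of the pair in the fit the counts were 2 and 0, where 3.33% of all tested genes were higher in KO2. The list mean (log2) was 6.04, 6.03 and 6.04 in KO1 and 7.15, 7.15 and 5.88 in KO2. KO2 replicates 1 and 2 thus lay above all of KO1, and replicate 3 below. SDF2L1, a co-chaperone gene, had 21.23, 21.14 and 21.83 FPKM in KO1 and 94.3, 86.74 and 39.33 in KO2 (1.64 ± 0.23, adjusted p = 0.000166). DERL3, which helps to export misfolded proteins, had 5.14, 6.97 and 7.27 FPKM in KO1 and 48.05, 47.59 and 10.35 in KO2 (2.02 ± 0.43, adjusted p = 0.00355). SEL1L, of the same export pathway, had 27.24, 25.91 and 24.9 FPKM in KO1 and 135.99, 140.98 and 32.66 in KO2. CRELD2 had 12.06, 12.81 and 11.78 FPKM in KO1 and 81.25, 76.16 and 14.6 in KO2. In these 4 genes every KO2 library was above KO1, with replicate 3 nearest to it. DERL3, SEL1L and CRELD2 were named by a rule that required this separation. With only the 6 libraries of the pair in the fit, the calls of DERL3, SEL1L and CRELD2 were lost (limma, adjusted p = 0.0682, 0.0976 and 0.114). HSPA5, the main chaperone of this compartment, had 111.21, 108.22 and 106.96 FPKM in KO1 and 246.9, 254.43 and 105.9 in KO2, so its replicate 3 lay just below the KO1 libraries. XBP1 itself was not called (0.21, adjusted p = 0.1; 0.27 and 0.0198 without KO2 replicate 3).

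The ATF4 and CHOP genes, which respond to amino acid shortage and lasting stress, were not called with all libraries. Of 29 tested members 0 were called in either direction (limma), while at an unadjusted p below 0.05 there was 1 higher in KO2 and 2 in KO1. Without KO2 replicate 3, 18 were higher in KO2 (median 0.69), as were 22.2% of all tested genes. The list mean was 5.98, 6.13 and 6.15 in KO1 and 6.81, 6.81 and 4.99 in KO2, and 6.34, 6.32 and 5.27 in KO1EV. TRIB3, a pseudokinase gene of this response, had 17.93, 22.43 and 22.31 FPKM in KO1 and 113.98, 115.67 and 11.37 in KO2. Here KO2 replicates 1 and 2 were above KO1 and replicate 3 below it, and PPP1R15A (88.99, 84.65 and 21.3 in KO2, 25.89, 28.1 and 30.12 in KO1) had the same order.

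Heat shock chaperones and ribosome biogenesis genes had the opposite order in the KO2 libraries. The heat shock list mean was 6.29, 6.24 and 6.27 in KO1 and 5.87, 5.87 and 6.64 in KO2. Of its 32 tested members 2 were higher in KO2 and 7 in KO1, the latter near its share over all tested genes. Those shares were 10.8% higher in KO2 and 19.3% higher in KO1. The counts were 2 and 23 without KO2 replicate 3, and 1 and 1 with only the 6 libraries. There the shares of all tested genes were 22.2% and 39.1%, and 3.33% and 8.32%. Among the 39 MYC and ribosome biogenesis genes 2 were higher in each clone, and without KO2 replicate 3, 2 were higher in KO2 and 29 in KO1 (median −0.41). With only the 6 libraries 0 of these 39 were called in either direction (limma, 2 higher in KO2 and 2 in KO1 at an unadjusted p below 0.05). HSPH1, a co-chaperone gene, had 20.41, 16.25 and 16.11 FPKM in KO1 and 9.49, 10.37 and 41.74 in KO2. CCDC86, a nucleolar protein gene, had 64.32, 61.61 and 66.16 FPKM in KO1 and 42.6, 40.64 and 160.25 in KO2, so its difference changed from 0.03 to −0.61 without KO2 replicate 3. MYC was higher in KO1 (−0.43 ± 0.13, limma, adjusted p = 0.0249).

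**Figure D3:**
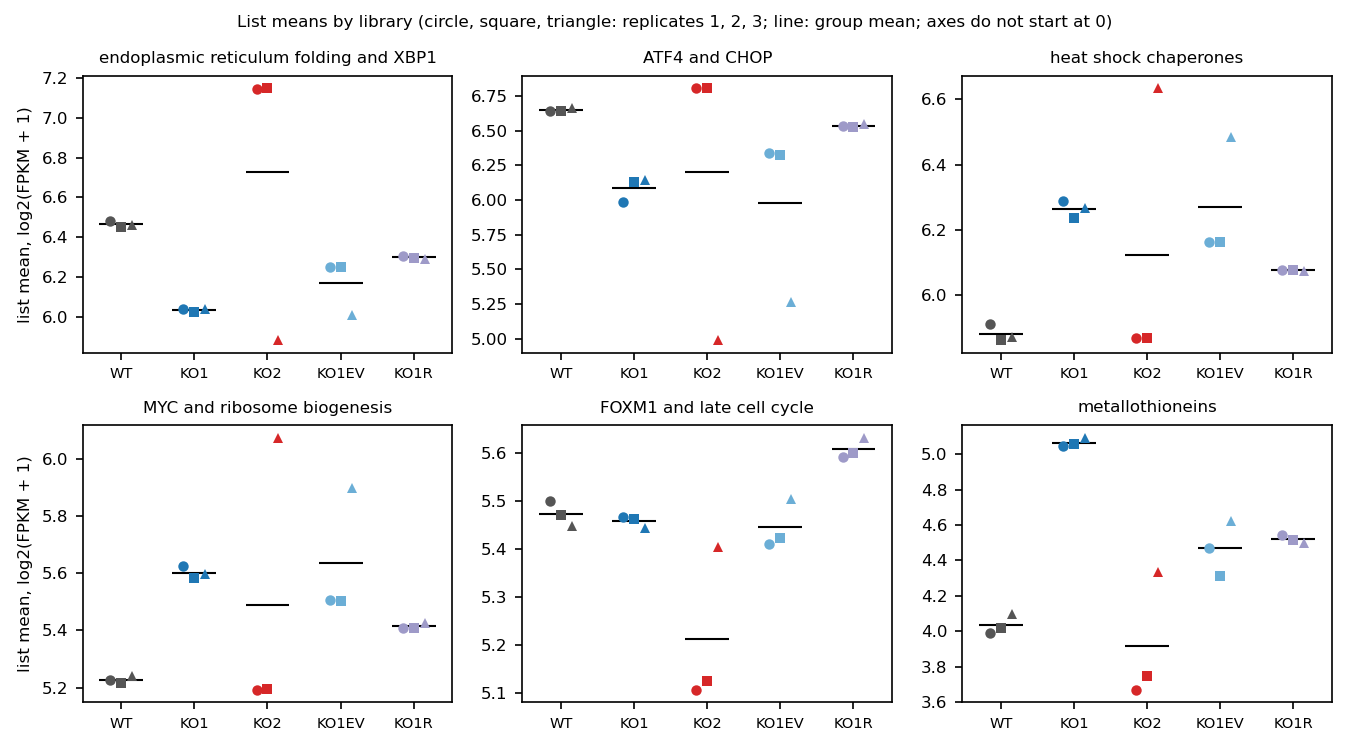
Mean log2(FPKM + 1) of 6 gene lists in the 15 OPM2 libraries (points, by replicate) with group means (lines). KO2 replicate 3 (triangle) lies at 5.88 in the endoplasmic reticulum list against 7.15 in replicates 1 and 2, and KO1EV replicate 3 departs from its group in the same direction in these 6 lists.

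Of 55 late cell cycle genes, among them genes known to depend on FOXM1, 2 were called higher in KO2 and 23 higher in KO1 (median −0.26). Among all tested genes, 10.8% were called higher in KO2 and 19.3% higher in KO1. The counts were 4 and 43 without KO2 replicate 3, where the shares of all tested genes were 22.2% and 39.1%. With only the 6 libraries in the fit they were 1 and 6, near the shares there of 3.33% and 8.32%. The list mean was 5.47, 5.46 and 5.44 in KO1 and 5.11, 5.13 and 5.40 in KO2, so KO2 replicate 3 lay nearest to KO1. GPSM2, a spindle orientation gene, had 5.07, 4.7 and 4.29 FPKM in KO1 and 2.75, 2.16 and 2.67 in KO2 (−0.69 ± 0.08, limma, adjusted p = 2.29e-05). NUSAP1, a spindle protein gene, had 127.48, 122.17 and 124.15 FPKM in KO1 and 82.66, 84.59 and 96.95 in KO2. The groups did not overlap in either gene, an order that 22% of all tested genes had. The 2 members higher in KO2 were GTSE1 (0.66), a G2 phase gene, and CDC25B (0.28), a phosphatase that activates cyclin-dependent kinases. CDC25B had 33.83, 38.59 and 36.25 FPKM in KO1 and 40.42, 47.68 and 45.03 in KO2, against 97.1 in WT. PLK1, the polo-like kinase gene, was not called (0.08 ± 0.07, adjusted p = 0.359), nor was CCNB1, the cyclin B1 gene (−0.28 ± 0.11, adjusted p = 0.0721, and 0.000677 without KO2 replicate 3).

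The G1/S and E2F genes, which start DNA replication, had 3 members higher in KO2 and 23 higher in KO1 of 48 (median −0.30). The shares of all tested genes were 10.8% and 19.3%. Without KO2 replicate 3 the counts were 4 and 35, against shares of 22.2% and 39.1%. With only the 6 libraries they were 1 and 5, near the shares there of 3.33% and 8.32%. The list mean of KO2 replicate 3 (4.96) lay within the KO1 range (4.949 to 4.995), and those of replicates 1 and 2 (both 4.61) lay below it. E2F7, a repressor of the E2F family, had 9.24, 8.94 and 9.26 FPKM in KO1 and 4.94, 5.13 and 4.83 in KO2 (−0.77 ± 0.07, limma, adjusted p = 4.92e-06). The replication helicase gene MCM5 went the other way, with 44.06, 50.7 and 49.32 FPKM in KO1 and 80.1, 78.64 and 113.59 in KO2. MCM5 and CDC45 are the 2 members of this list on chromosome 22 and both were higher in KO2, as was 1 of the 46 others. GTSE1 also lies on chromosome 22.

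Of 6 metallothioneins, small proteins that bind zinc and copper, 4 were higher in KO1 and 0 in KO2 (limma, with 4 and 0 at an unadjusted p below 0.05, median −1.06). The count higher in KO1 was 6 without KO2 replicate 3 and 3 under median-ratio scaling or with only the 6 libraries. MT1E had 73.3, 74.25 and 83.45 FPKM in KO1 and 7.55, 8.48 and 16.91 in KO2, and MT1G had 59.03, 59.61 and 66.73 and 15.7, 17.6 and 25.55. The metallothionein genes resemble each other, so reads may be split between them. Of 24 glutathione and antioxidant genes 15 were higher in KO1 and 3 in KO2. Without KO2 replicate 3 the counts were 20 and 4, and with only the 6 libraries, 6 and 0. Against both lists, 19.3% of all tested genes were higher in KO1 and 10.8% in KO2. These shares were 39.1% and 22.2% without KO2 replicate 3, and 8.32% and 3.33% with only the 6 libraries. PRDX2, a peroxiredoxin gene, had 228.7, 240.88 and 251.74 FPKM in KO1 and 69.39, 64.28 and 77.41 in KO2 (−1.76 ± 0.07, limma, adjusted p = 2.18e-09).

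Of 32 adhesion and matrix genes, 20 were higher in KO1 and 3 in KO2. The counts were 20 and 5 without KO2 replicate 3, and 16 and 2 with only the 6 libraries. The shares of all tested genes higher in KO1 and in KO2 were 19.3% and 10.8% with all libraries. They were 39.1% and 22.2% without KO2 replicate 3, and 8.32% and 3.33% with only the 6 libraries. CD44, a hyaluronan receptor gene, had 19.19, 20.53 and 19.51 FPKM in KO1 and 6.81, 6.58 and 5.44 in KO2. NCAM1, the gene of CD56, a surface protein of many myeloma cells, had 131.17, 131.83 and 123.86 FPKM in KO1 and 48.96, 50.81 and 42.83 in KO2 (−1.42 ± 0.07, limma, adjusted p = 2.33e-08). ITGAL, ICAM3 and JAM3 were also higher in KO1, by 1.46, 1.01 and 1.02. Members higher in KO2 included LGALS1 and the integrin gene ITGA3 (0.38).

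Of 18 plasma cell identity genes 5 were higher in KO2 and 4 in KO1. Without KO2 replicate 3 the counts were 11 and 4, and with only the 6 libraries, 2 and 1. For this and the next lists, the shares of all tested genes were 10.8% higher in KO2 and 19.3% higher in KO1. They were 22.2% and 39.1% without KO2 replicate 3, and 3.33% and 8.32% with only the 6 libraries. The 4 plasma cell genes higher in KO1 were thus near the share with all libraries. CD38 had 8.25, 9.54 and 9.5 FPKM in KO1 and 19.35, 19.3 and 12.37 in KO2 (0.81 ± 0.13, limma, adjusted p = 0.000544), while SDC1 (−0.02), IRF4 (0.22) and PRDM1 (−0.21) were not called. IRF4, a plasma cell transcription factor gene, was called without KO2 replicate 3 (0.46, limma, adjusted p = 5.05e-06). In the MHC class II list 3 members were higher in KO2 and 2 in KO1 of 8. HLA-DRA had 9.06, 8.07 and 8.61 FPKM in KO1 and 16.05, 15.34 and 13.04 in KO2. Antigen processing for MHC class I had 7 of 20 members higher in KO1, among them TAP2 (−0.64) and PSME1 (−0.55), and 2 higher in KO2. Without KO2 replicate 3 these counts were 9 and 5, near the shares over all tested genes there of 39.1% and 22.2%. With only the 6 libraries the counts were 4 and 0. Of 31 cholesterol synthesis genes 10 were higher in KO2 and 0 in KO1 (limma, 13 and 4 at an unadjusted p below 0.05), and without KO2 replicate 3, 15 and 4. With only the 6 libraries 0 were called in either direction (limma, 8 higher in KO2 and 0 in KO1 at an unadjusted p below 0.05). CYP51A1, a sterol demethylase gene, had 34.96, 34.64 and 36.04 FPKM in KO1 and 72.67, 72.63 and 38.19 in KO2.

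Of 26 cancer-testis antigens, germ cell genes that tumours reactivate, 3 were higher in KO2 and 5 in KO1, which is near the background shares of 10.8% and 19.3%. Without KO2 replicate 3 the counts were 6 and 12, where the background shares were 22.2% and 39.1%. PAGE5 had 93.39, 89.7 and 98.15 FPKM in KO1 and 18.25, 20.42 and 21.25 in KO2, and SSX1 had 5.79, 6.35 and 6.62 and 1.11, 0.81 and 0.85. The zinc finger genes of 19p12 had 10 of 23 members higher in KO1 and 0 in KO2 (limma, 13 and 0 at an unadjusted p below 0.05), 5 and 1 with quantile normalization, and 6 and 0 with only the 6 libraries. Without KO2 replicate 3 the counts stayed at 10 and 0. The share of all tested genes called higher in KO1 there was 39.1%, against 19.3% with all libraries. Many of the 19p12 genes have close copies, so their values are uncertain.

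**Figure D4:**
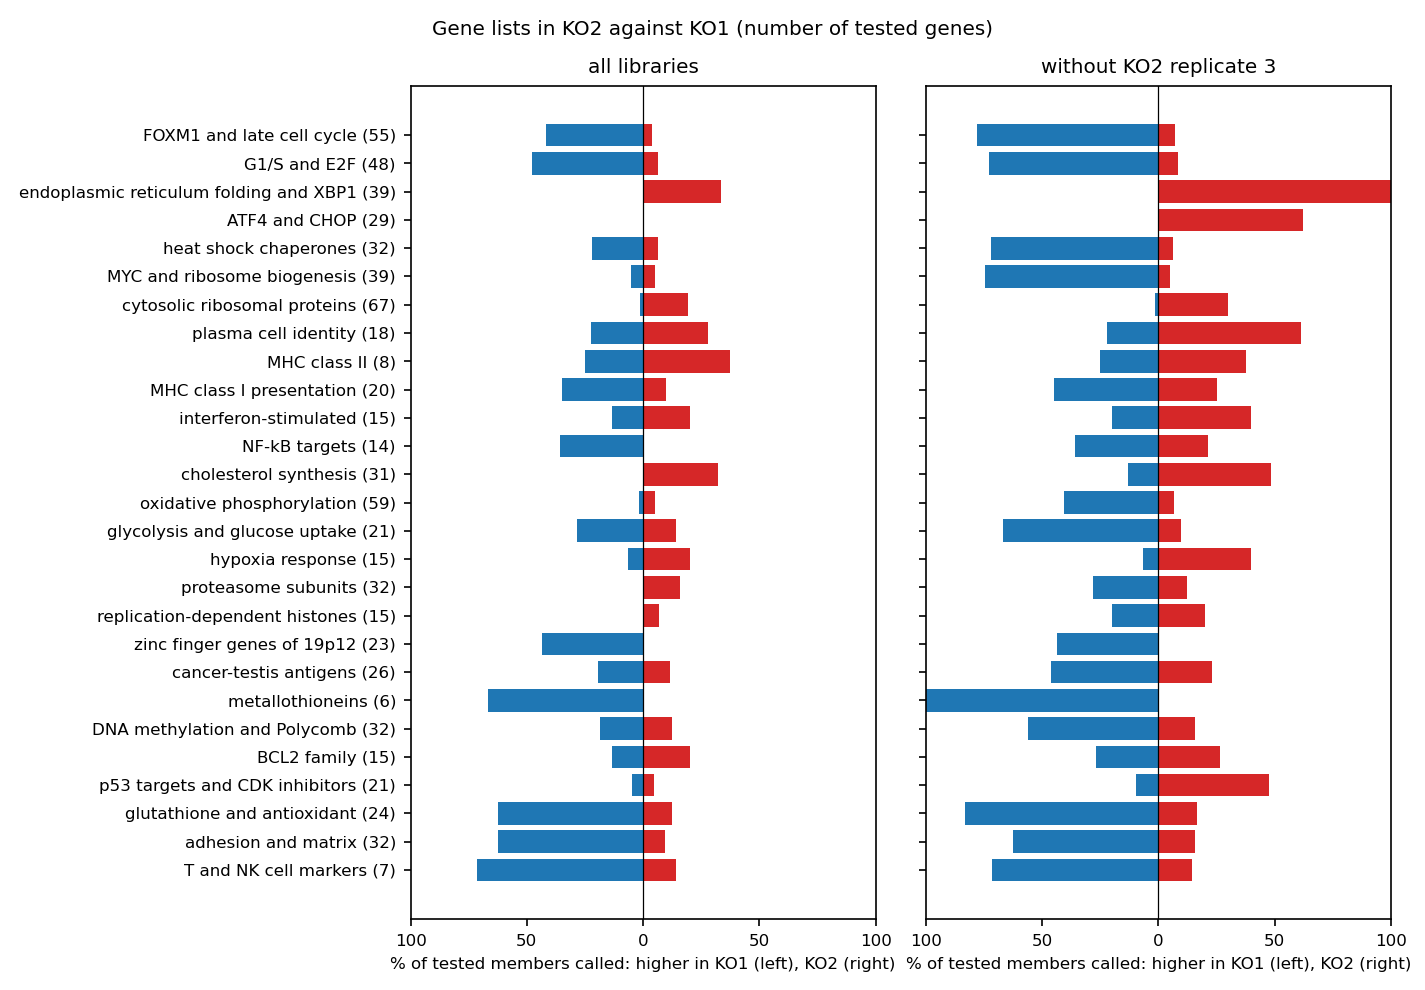
Share of the tested members of each list that were called higher in KO1 (left) or KO2 (right), with all libraries and without KO2 replicate 3. The background was 19.3% higher in KO1 and 10.8% higher in KO2 with all libraries, and 39.1% and 22.2% without KO2 replicate 3.

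Clone differences ran in one direction over long stretches of neighbouring genes. Gene order was taken from RefSeq, and the stretches were chosen after the values were seen, so they are described and not tested. On chromosome 22, 144 of 243 tested genes were higher in KO2 (59.3%, against 10.9% over all placed genes) and 11 were higher in KO1, with a median of 0.41. The median difference from WT was −0.10 in KO1 and 0.30 in KO2. On chromosome 18, 45.1% of 144 genes were higher in KO2 (median 0.24). Chromosomes 7, 10 and 8 had 34.9%, 30% and 29.4% of genes higher in KO1, against 19.3% over all placed genes.

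Blocks of at least 25 neighbouring tested genes located these stretches. Of 393 blocks, 13 had a median of −0.3 or less and 11 a median of 0.3 or more. The lowest lay at the end of chromosome 11, where 5 blocks in a row from AMOTL1 to GLB1L2 had medians of −0.32 to −0.59. In the block from VPS11 to MSANTD2, 80% of genes were higher in KO1 and 0 in KO2. The 5 block medians against WT were −0.17 to −0.52 in KO2 and −0.01 to 0.10 in KO1. JAM3 lies in a run of 9 tested genes called higher in KO1 there, from APLP2 to GLB1L2, and NCAM1 is also on chromosome 11. The run from VPS11 to OAF held 12 tested genes in a row called higher in KO1. Among them H2AFX, the gene of the DNA damage histone, had 77.43, 78.39 and 81.67 FPKM in KO1 and 38.17, 36.01 and 46.09 in KO2, and CBL, a ubiquitin ligase gene, had 4.67, 5.21 and 4.84 and 1.86, 1.94 and 2.75.

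Blocks at the end of chromosome 7 and the start of chromosome 10 were also lower in KO2. The block from ZNF786 to WDR60 on chromosome 7 had 81.2% of 48 genes higher in KO1. Its median against WT was −0.27 in KO2, 0.20 in KO1, 0.09 in KO1EV and −0.13 in KO1R. In the block from ZMYND11 to GATA3 on chromosome 10 these medians were −0.24, 0.20, 0.15 and −0.09. KO1R, a derivative of KO1, thus also lay below WT in these blocks, though less far than KO2. EZH2, the Polycomb methyltransferase gene on chromosome 7, had 73.69, 72.87 and 74.94 FPKM in KO1 and 39.48, 37.43 and 46.42 in KO2. BMI1, a Polycomb gene on chromosome 10, had 276.32, 248.28 and 247.36 FPKM in KO1 and 173.09, 177.23 and 200.18 in KO2. The clones did not overlap in either gene, as in 22% of all tested genes with KO1 above KO2. Of the 32 tested DNA methylation and Polycomb genes, 4 were higher in KO2 and 6 in KO1 (limma). That is near the shares over all tested genes of 10.8% and 19.3%. Without KO2 replicate 3 the counts were 5 and 18, where the shares were 22.2% and 39.1%. With only the 6 libraries in the fit they were 2 and 4.

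On chromosome 22 the largest block median was 0.68, from BCR to CCDC117, with 88% of 25 genes higher in KO2. Its median against WT was −0.36 in KO1 and 0.36 in KO2. The run from DGCR6 to TANGO2 held 14 tested genes in a row called higher in KO2. HIRA, a histone chaperone gene of that run, had 21.4, 23.62 and 24.53 FPKM in KO1 and 37.56, 37.29 and 42.23 in KO2. LGALS1 lies on this chromosome too, at the end of a run of 10 tested genes called higher in KO2 that starts at EIF3D. MLC1 and TSPO also lie there and went the other way. Of the 39 endoplasmic reticulum genes 4 lie on chromosome 22 (XBP1, SDF2L1, CRELD2 and DERL3), and the other 35 had 10 members higher in KO2 and a median of 0.53. Chromosome 14 (SEL1L to TMEM251, median 0.44) and chromosome 18 (FHOD3 to ME2, 0.42) also held blocks higher in KO2. With the trend on GC content and length removed and KO2 replicate 3 left out, the block medians named here kept their sign. They were 0.80 for BCR to CCDC117 and −0.43 for VPS11 to MSANTD2. Single genes could change sign there, as did C2CD2L of the run from VPS11 to OAF. DNA copy number was not measured in the files used here, and the cause was not tested.

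**Figure D5:**
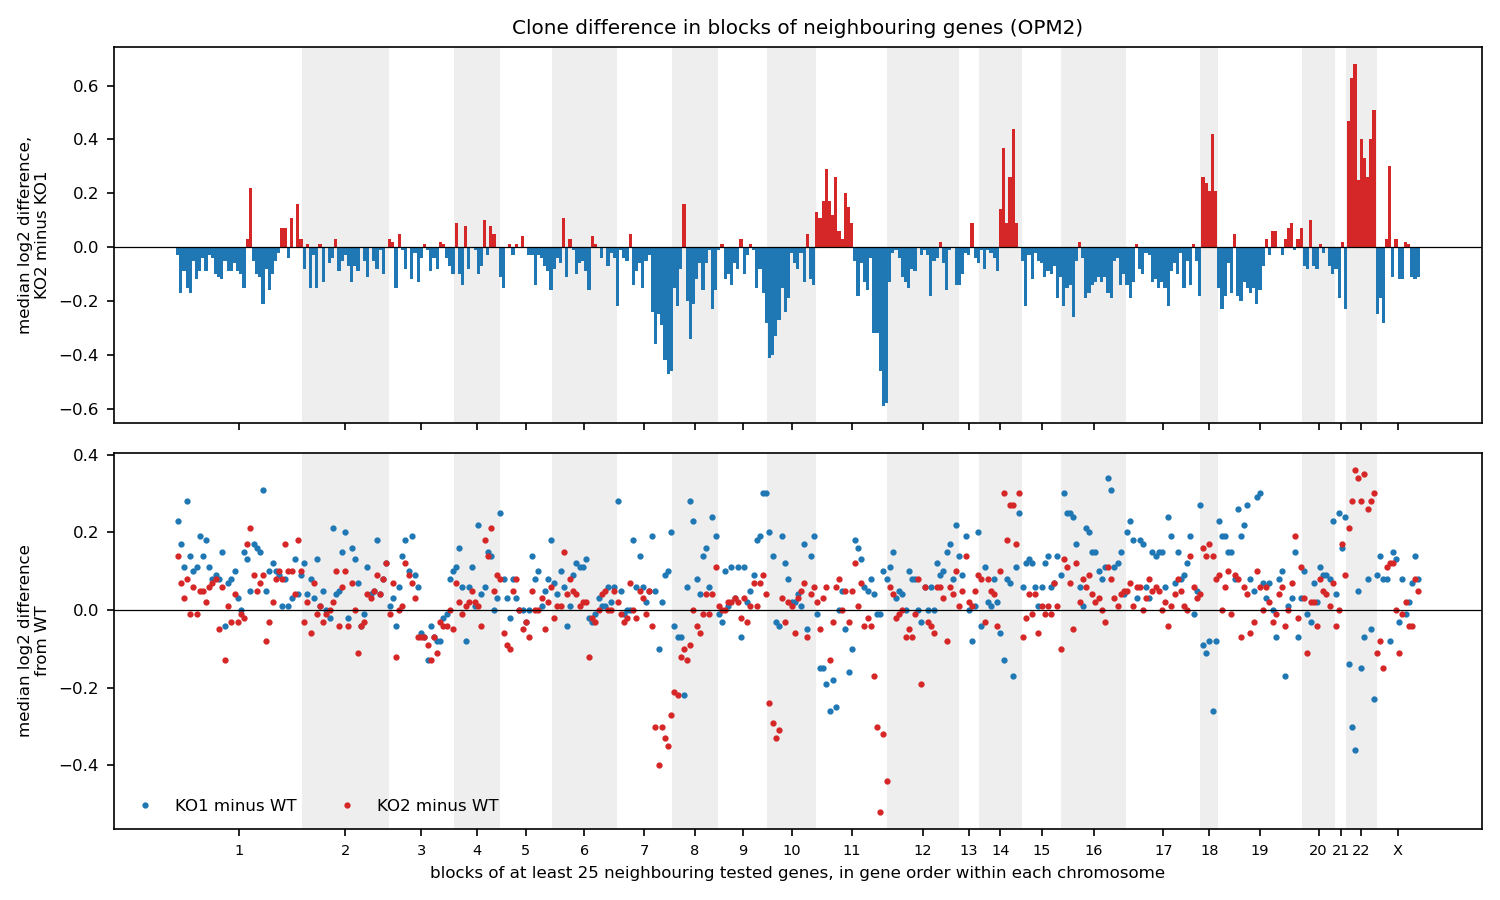
Median log2 difference in 393 blocks of neighbouring tested genes, ordered along the chromosomes (shaded in turn), for KO2 minus KO1 (top) and for each clone minus WT (bottom). The deepest bars, to −0.59, lie at the end of chromosome 11 and the highest, to 0.68, on chromosome 22.

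The like pair of clones in the other myeloma line of the series, Delta47, showed no called difference in FOXM1. Its KO1 libraries had 46.09, 49.78 and 47.97 and its KO2 libraries 47.11, 46.1 and 45.35 in the authors' expression value, and the ranges overlapped (−0.05 ± 0.04, limma, adjusted p = 0.261). The difference between the lines was −0.51 ± 0.10 (limma interaction, adjusted p = 0.00462). A difference between the lines was called in 2527 of the 9310 genes tested in both. Between the Delta47 clones 4844 of 10771 genes were called (45%), but 62 reached 2-fold. The SD of the clone difference over genes was 0.247 in Delta47 and 0.38 in OPM2 (0.473 without KO2 replicate 3). The tables were scaled separately, so levels are not compared across the lines.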

How the data were processed

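Poly-A RNA was sequenced as paired 100-base reads, per the labels' protocols. The genome build was hg19, per the submitters' processing notes. The aligner and the counter were not given in the sources used here. The authors deposited FPKM for OPM2, per the file headers. For Delta47 the deposited table names no unit, and its values were treated as a signal, called the authors' expression value. Of its columns, 6 matched no single sample and were not used. No counts were used and depth is unknown. An estimate of relative depth from low values did not recover known depths in simulated data and was dropped.

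Values were taken as log2(value + 1). The OPM2 model covered 5 groups and 15 libraries, by limma-trend in limma 3.58.1 under R 4.3.3, with two-sided moderated tests, Benjamini-Hochberg adjustment over the 10135 genes and calls at an adjusted p below 0.05. The fit was tested on simulated data. In Delta47 the same fit was made over the WT, KO1 and KO2 groups, and the lines were compared by an interaction term over the genes of both tables. Symbols turned into dates (23 in OPM2, 24 in Delta47) were renamed by gene ID.

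The members, the 31 gene lists and the naming rule were chosen with earlier results of these data known. The rule names FOXM1 and 35 fixed genes in all, the 15 largest differences each way with no overlap and a mean of at least 5 FPKM, genes switched between under 0.5 and at least 5 FPKM, up to 4 members of a list by adjusted p, 8 genes each way in which KO2 replicate 3 is farthest from the others, and members of 6 runs of neighbouring genes. Other list members named, the neighbour blocks and the removal of GC and length trends were chosen after values were seen. Gene order, chromosomes and the bases before starts came from RefSeq (GRCh38.p14), guides from the study's design text, and GC content and length from GENCODE transcripts (99.6% of tested genes).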

Additional observations from a re-analysis of the deposited data

Results flagged for a closer look

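The FOXM1 difference between the clones was not the same in the 2 lines. It was −0.57 ± 0.07 (log2, SE) in OPM2 and −0.05 ± 0.04 in Delta47, and the difference of these differences was −0.51 (limma interaction, adjusted p = 0.00462), from a joint fit over both lines. In OPM2 every KO2 library lay below every KO1 library, as in 22% of the tested genes, and in Delta47 the ranges overlapped. Without OPM2 KO2 replicate 3 it was −0.60. Such a difference between the lines was called in 2527 of the 9310 genes tested in both (limma interaction). Each knockout group is 1 clone, so the test compares these clones and not the lines in general. The tables were scaled separately, and the cause was not tested.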

How the results depend on the processing

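The count of called genes depended on KO2 replicate 3. Against 3058 genes it was 6210 without that library, 6905 with KO1EV replicate 3 also left out, 6821 with only the KO1 and KO2 libraries without it, and 6310 without it and with the GC and length trend removed. It was 1180 with only the 6 libraries. Leaving out 1 library gave 2150 to 6210 genes called and 181 to 424 at 2-fold. The 2-fold count of 204 became 424, 425, 426 and 403 in those settings without KO2 replicate 3, and 362 with a pseudocount of 0.1. The FOXM1 difference stayed between −0.65 and −0.44 in the settings run. Single genes changed sign. PCK2 was 0.82 in the 3 fits without KO2 replicate 3 and 0.97 with the GC and length trend also removed, and CCDC86 was −0.61 and −0.46. Leaving out 1 library moved PCK2 between −0.62 and 0.82 and CCDC86 between −0.61 and 0.37. With GC and length removed and KO2 replicate 3 left out, SDC1 was 0.19. C2CD2L, a gene of the run from VPS11 to OAF called higher in KO1, was 0.02 in that fit. The GC and length fits were chosen after seeing the data, as was the replicate block in Delta47, which called 4829 genes. With the replicate block in OPM2, 3371 genes were called and FOXM1 stayed at −0.57. Same-numbered libraries of the clones had correlations of deviations of −0.069, 0.058 and −0.013, so the numbers do not pair them. Depth is unknown, so the precision of low FPKM values cannot be given.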
